A study of Mus musculus with 4 samples.

Results

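Transcripts of 10 enzymes that make serine or carry its carbon through folate were followed in transplanted mouse haematopoietic cells: Phgdh, Psat1, Psph, Shmt1, Shmt2, Mthfd1, Mthfd2, Mthfd1l, Fpgs and Aldh1l2. They were chosen by name, as every non-control probe annotated with 1 of these symbols, which gave 15 probes of the 55681 on the array and 10 of the 28315 gene names with a probe well above background somewhere. All 15 probes carried a RefSeq accession of their symbol. The study asks what the kinase p38 alpha (gene Mapk14) does when stem and progenitor cells begin to cycle after transplantation. Long-term haematopoietic stem cells (LT-HSC, sorted as CD34- Flt3- LSK cells) and multipotent progenitors (MPP, sorted as CD34+ Flt3+ LSK cells) came from the bone marrow of male C57BL/6J (Ly5.2) mice 10 weeks old, either p38 cKO (cKO) or wild type (WT). In all 4 groups (cKO LT-HSC, WT LT-HSC, cKO MPP and WT MPP) the cells were stained with CFSE, a dye that marks transplanted cells and is diluted at each division, given to Ly5.1 congenic mice irradiated with 9.5 Gy, and sorted again as CFSE-positive marrow cells after 16 h. Each group had 1 array, so no pair of arrays can be tested, and the driver of the deletion, the exons deleted and the number of mice behind each array are not given in the sources used here.

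Serine is built from a glycolytic intermediate by Phgdh, Psat1 and Psph. Serine hydroxymethyltransferases then pass its side-chain carbon to tetrahydrofolate, in the cytosol through Shmt1 and in mitochondria through Shmt2, and the Mthfd enzymes move that carbon between oxidation states and between the compartments as formate. The carbon is used to make purines and thymidylate, which dividing cells need for DNA.

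On the arrays, the bright Mapk14 probe read 912.2 in cKO LT-HSC and 1447 in WT LT-HSC, and 1024 in cKO MPP and 951.2 in WT MPP. The other Mapk14 probe differed between genotypes by 0.13 (log2) in LT-HSC and by -0.03 in MPP. Since the deleted exons are not known, neither probe checks the genotype, and cKO stands here for what the label says. Of the markers of the sort, Kit, Ly6a, Cd34 and Flt3 were well above background on all 4 arrays, those sorted as CD34- Flt3- included. For LT-HSC minus MPP, Cd34 was at -1.02 (log2) in cKO and -2.99 in WT. The brightest Flt3 probe was at -1.16 in cKO and -1.80 in WT, while 2 further Flt3 probes were at 0.70 and 0.63 in cKO and at 0.22 and 0.88 in WT. Procr, a stem cell marker, was at 0.26 in cKO and -1.18 in WT. Other cell types were also read. Summed signals of 8 B lineage markers, in units of each array's 75th percentile, were 24.7 in cKO LT-HSC and 62.1 in WT LT-HSC, against 2.06 in cKO MPP and 2.41 in WT MPP. For 6 stromal and endothelial markers these sums were 7.0 in cKO LT-HSC and 37.3 in WT LT-HSC, against 8.36 in cKO MPP and 8.24 in WT MPP. For erythroid markers they were 35.4 in cKO LT-HSC and 72.8 in WT LT-HSC, against 22.5 in cKO MPP and 21.1 in WT MPP. The WT LT-HSC array was highest in these 3 lists. The cKO LT-HSC array was also above both MPP arrays in B lineage and erythroid markers. Macrophage and neutrophil markers ran differently. Macrophage sums were 84.7 in cKO MPP and 30.2 in WT MPP, and lower on both LT-HSC arrays. Neutrophil sums were 249.3 in cKO LT-HSC and 206.1 in WT LT-HSC, against 192.9 in cKO MPP and 152.2 in WT MPP. The comparison of cKO with WT in MPP thus has low B lineage signal on both sides, but unequal macrophage signal. The part of these cells in the results below was not tested. In RNA from bulk sorted cells, fewer cells of a type and less RNA per cell cannot be told apart.

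Expression of these enzymes was lower in LT-HSC than in MPP, with the exception of Aldh1l2 in WT, which was not well above background in WT MPP and was at least 4.21-fold higher in WT LT-HSC. In WT all 9 members measured on both arrays were lower in LT-HSC, with a median difference of -1.59 (log2), and 8 of the 9 were lower by 2-fold or more, where 18.1% of all genes were; 0 were higher by that much, where 9.15% of genes were. In cKO all 10 were lower in LT-HSC, with a median of -0.59, and 1 of the 10 was lower by 2-fold or more, where 6.44% of all genes were; 0 were higher, where 6.67% were. Being lower in LT-HSC in both genotypes held for 9 of 9 members and for 43.1% of all genes. Between genotypes, the median of the 10 in LT-HSC was 0.58, 3 of 10 were higher in cKO by 2-fold or more (8.97% of all genes) and 1 of 10 was lower (7.92% of all genes). In MPP the median of 9 was -0.15, and 0 of 9 differed by 2-fold, where 1.76% of genes were higher and 1.89% were lower. These are differences of log2 processed signal after each array's 75th percentile was subtracted, for genes well above background on both arrays, and a gene with several probes is represented by its brightest one. The ± beside a difference is an error that the scanner software derives from the spots, and it covers no biological spread.

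Several probe sequences show what was read. They are given 5′ to 3′ in the sense of the transcript, with coordinates from the array annotation (build mm9). The Shmt1 pair is shown whole because its probes disagreed between genotypes. The first 30 bases are shown for Fpgs and Mthfd2, the largest increases in cKO LT-HSC as scaled here. They are also shown for Aldh1l2, which went the other way. In the last pair, from Mthfd1 and its mitochondrial relative Mthfd1l, capitals mark the bases that are identical where the probes overlap in alignment.
Shmt1 probe 1, chr11:60620453-60620512, minus strand: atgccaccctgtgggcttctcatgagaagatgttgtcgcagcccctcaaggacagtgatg
Shmt1 probe 2, chr11:60603099-60603158, minus strand: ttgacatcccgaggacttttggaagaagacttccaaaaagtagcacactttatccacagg
Fpgs, chr2:32538162-32538221, minus strand: ggcatttggggactgtgttgctggaactaa
Mthfd2, chr6:83256518-83256577, minus strand: ttctgtcgaaatggtttaaaatgtttgtat
Aldh1l2, chr10:82950571-82950630, minus strand: taaattgccttccttaagttttgctttttt
Mthfd1, chr12:77418622-77418681, plus strand: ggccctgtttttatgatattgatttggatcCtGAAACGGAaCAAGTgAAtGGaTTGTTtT
Mthfd1l probe 1, chr10:6198416-6198475, minus strand: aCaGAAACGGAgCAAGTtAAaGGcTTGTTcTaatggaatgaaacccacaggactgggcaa
The aligned stretch of this last pair is 31 bases long with 24 identical. Of the genes with a pair of probes, the Shmt1 probes start 17.4 kb apart in the genome and the Psat1 probes 12.0 kb apart, while the Phgdh probes start 88 bases apart.

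**Figure D1:**
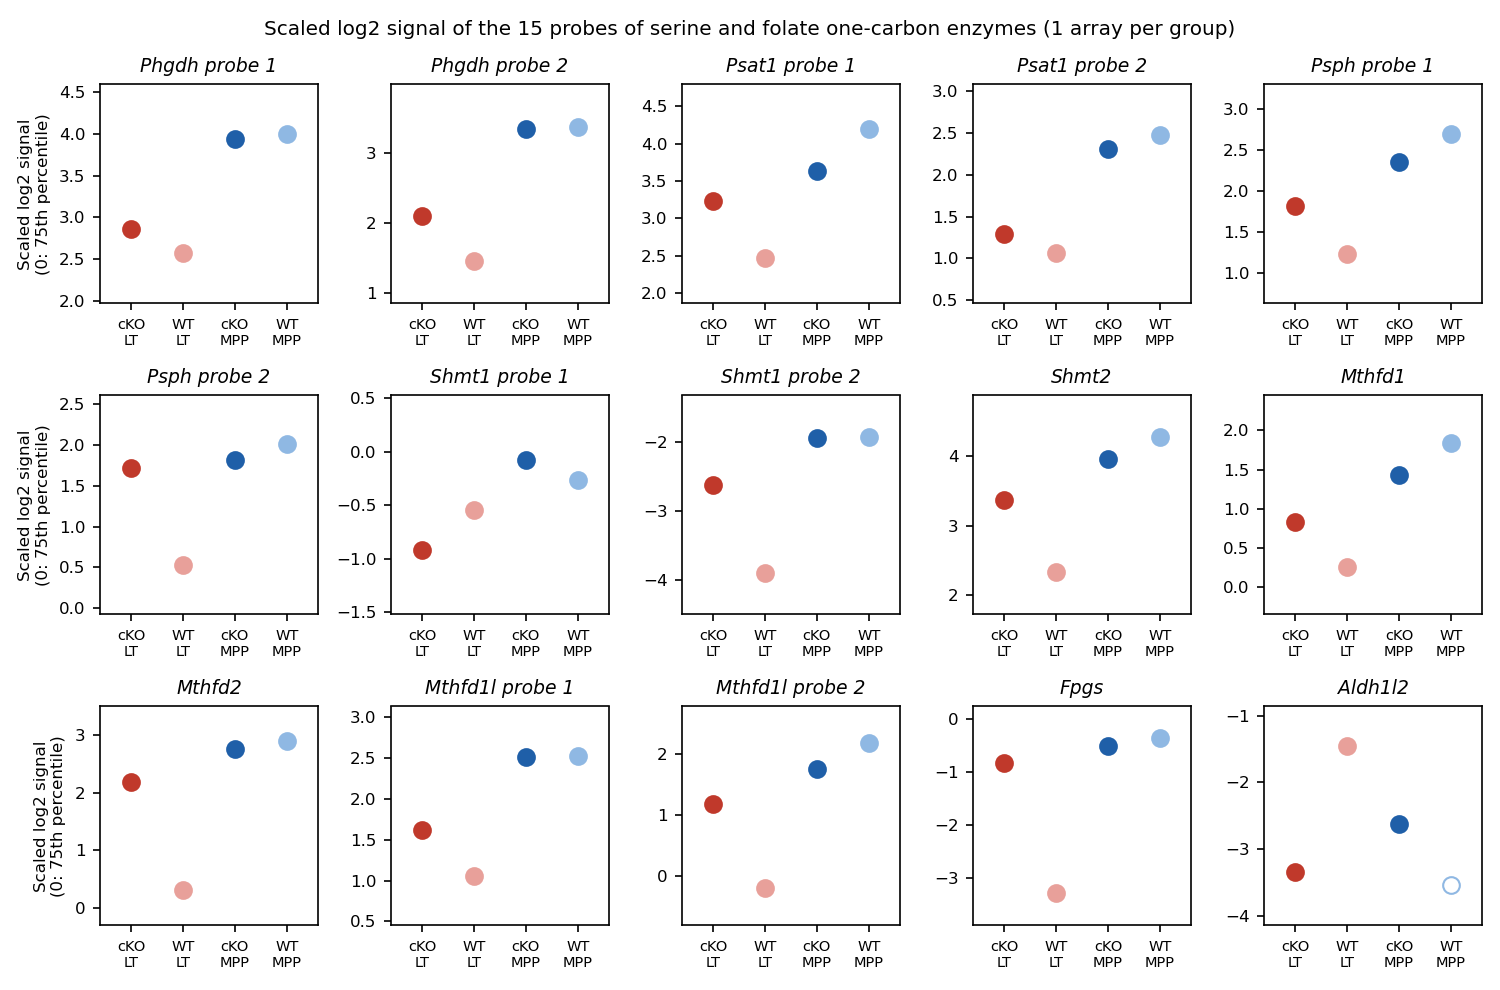
Scaled log2 signal (log2 processed signal minus the array's 75th percentile, vertical axes, each with its own range) of the 15 probes on the 4 arrays, 1 point per array, with an open point where the spot was not well above background. With this scaling, in 13 of the 14 probes read on all 4 arrays the WT MPP point is highest, followed by cKO MPP, cKO LT-HSC and WT LT-HSC, an order that the bright Phgdh and Mthfd1l probes lose under 3 other scalings.

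The serine synthesis enzymes were all lower in LT-HSC than in MPP. Phgdh, which catalyses the first step of the pathway, had processed signals of 1473 in cKO LT-HSC and 1272 in WT LT-HSC, against 2689 in cKO MPP and 2848 in WT MPP. Its difference between populations, LT-HSC minus MPP, was -1.08 ± 0.20 in cKO and -1.42 ± 0.20 in WT. Between genotypes the bright probe gave 0.29 for LT-HSC and -0.05 for MPP, small beside the gap between populations. Its other probe gave the same signs and differed more in LT-HSC, at 0.64.

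Psat1, the aminotransferase of the second step, read 1891 in cKO LT-HSC and 1182 in WT LT-HSC, against 2167 in cKO MPP and 3261 in WT MPP. LT-HSC minus MPP was -0.40 in cKO and -1.72 in WT on this bright probe, and -1.02 in cKO and -1.41 in WT on the dimmer one. In cKO minus WT the bright Psat1 probe gave 0.76 ± 0.20 in LT-HSC and -0.56 ± 0.20 in MPP, so the signs differed. The dimmer Psat1 probe gave 0.22 and -0.17, so the sign held and the size did not.

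Psph, the phosphatase that releases free serine, read 711.0 in cKO LT-HSC and 503.5 in WT LT-HSC, against 891.0 in cKO MPP and 1159 in WT MPP. LT-HSC minus MPP was -0.53 in cKO and -1.46 in WT, so the gap was narrower in cKO. The other Psph probe gave -0.10 ± 0.20 in cKO, within the scanner error, and -1.48 in WT. Psph was higher in cKO LT-HSC by 0.58 on the bright probe and by 1.18 ± 0.20 on the other. The larger of these passed 2-fold although the probe chosen to represent the gene did not. In MPP these probes gave -0.35 and -0.20.

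Of the cytosolic folate enzymes, Mthfd1 followed the serine synthesis enzymes and the Shmt1 probes disagreed. Mthfd1, the trifunctional enzyme that makes the formyl folate used in purine synthesis, read 360.0 in cKO LT-HSC and 255.6 in WT LT-HSC, against 470.1 in cKO MPP and 641.3 in WT MPP. Its LT-HSC minus MPP difference was -0.59 in cKO and -1.59 in WT. In cKO minus WT it gave 0.58 in LT-HSC and -0.42 in MPP.

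Shmt1, the cytosolic hydroxymethyltransferase, was dim on both probes. Probe 1 read 106.97 in cKO LT-HSC and 146.7 in WT LT-HSC, against 166.0 in cKO MPP and 148.3 in WT MPP. Probe 2 read 32.8 in cKO LT-HSC and 14.4 in WT LT-HSC, against 45.8 in cKO MPP and 47.2 in WT MPP. In LT-HSC, cKO minus WT was -0.37 ± 0.21 on probe 1 and 1.27 ± 0.36 on probe 2, so the probes differ in sign and no direction is given for Shmt1 between genotypes. LT-HSC minus MPP had 1 sign on both, at -0.84 and -0.69 in cKO and at -0.28 and -1.97 in WT.

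As scaled here and by brightest probe, the mitochondrial enzymes Aldh1l2, Mthfd2 and Shmt2 held the largest genotype differences in LT-HSC after Fpgs. Mthfd1l, also mitochondrial, was at 0.56, below Psat1 at 0.76. Second probes of Psph at 1.18 and Shmt1 at 1.27 lay above Shmt2 at 1.04. Mthfd2, the mitochondrial methylenetetrahydrofolate dehydrogenase and cyclohydrolase, read 912.7 in cKO LT-HSC and 265.2 in WT LT-HSC, against 1180 in cKO MPP and 1319 in WT MPP. It was 3.64-fold higher in cKO LT-HSC than in WT LT-HSC, a difference of 1.86 ± 0.20 (log2), and in MPP cKO minus WT was -0.13. LT-HSC minus MPP was -0.58 in cKO and -2.57 ± 0.20 in WT, as scaled here the second widest gap among the members in WT.

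Shmt2, the mitochondrial hydroxymethyltransferase, read 2093 in cKO LT-HSC and 1078 in WT LT-HSC, against 2722 in cKO MPP and 3439 in WT MPP. It was 2.05-fold higher in cKO LT-HSC (1.04 ± 0.20), and in MPP cKO minus WT was -0.31 ± 0.20. For Shmt2, LT-HSC minus MPP was -0.59 in cKO and -1.93 in WT.

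Mthfd1l, which releases formate inside mitochondria, read 617.5 in cKO LT-HSC and 444.4 in WT LT-HSC, against 994.9 in cKO MPP and 1028 in WT MPP on its bright probe. The other probe read 457.0 in cKO LT-HSC and 185.3 in WT LT-HSC, against 592.1 in cKO MPP and 809.3 in WT MPP. Both were lower in LT-HSC in both genotypes. In cKO minus WT the bright probe gave 0.56 for LT-HSC and -0.02 for MPP, while the other gave 1.38 and -0.42, again with equal signs and unequal sizes.

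Fpgs adds glutamates to folates and so keeps them in the cell. As scaled here, Fpgs had the largest difference of all the members between genotypes in LT-HSC and between populations in WT. It read 114.1 in cKO LT-HSC and 21.8 in WT LT-HSC, against 123.2 in cKO MPP and 139.4 in WT MPP. Fpgs was 5.52-fold higher in cKO LT-HSC than in WT LT-HSC (2.47 ± 0.27), and LT-HSC minus MPP was -0.32 in cKO and -2.93 ± 0.27 in WT. Its WT LT-HSC signal stands alone below the other 3, on an array whose lowest signal well above background was 12.5.

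Aldh1l2, the mitochondrial formyltetrahydrofolate dehydrogenase, was the exception to the pattern. It read 19.8 in cKO LT-HSC and 77.7 in WT LT-HSC, against 28.3 in cKO MPP and 15.3 in WT MPP, where it was not well above background. It was 3.70-fold lower in cKO LT-HSC than in WT LT-HSC (-1.89 ± 0.28), and at least 1.88-fold higher in cKO MPP than in WT MPP. LT-HSC minus MPP was -0.72 in cKO, and in WT Aldh1l2 was at least 4.21-fold higher in LT-HSC. In these bounds the bright array is divided by the dim array's detection limit, its lowest signal called above background, or by the dim spot itself if that is higher. Of the 10 members, Aldh1l2 was the 1 whose highest array was WT LT-HSC, the array with the highest B lineage and stromal marker signals. The part of such cells in this dim signal, read by 1 probe, was not tested.

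**Figure D2:**
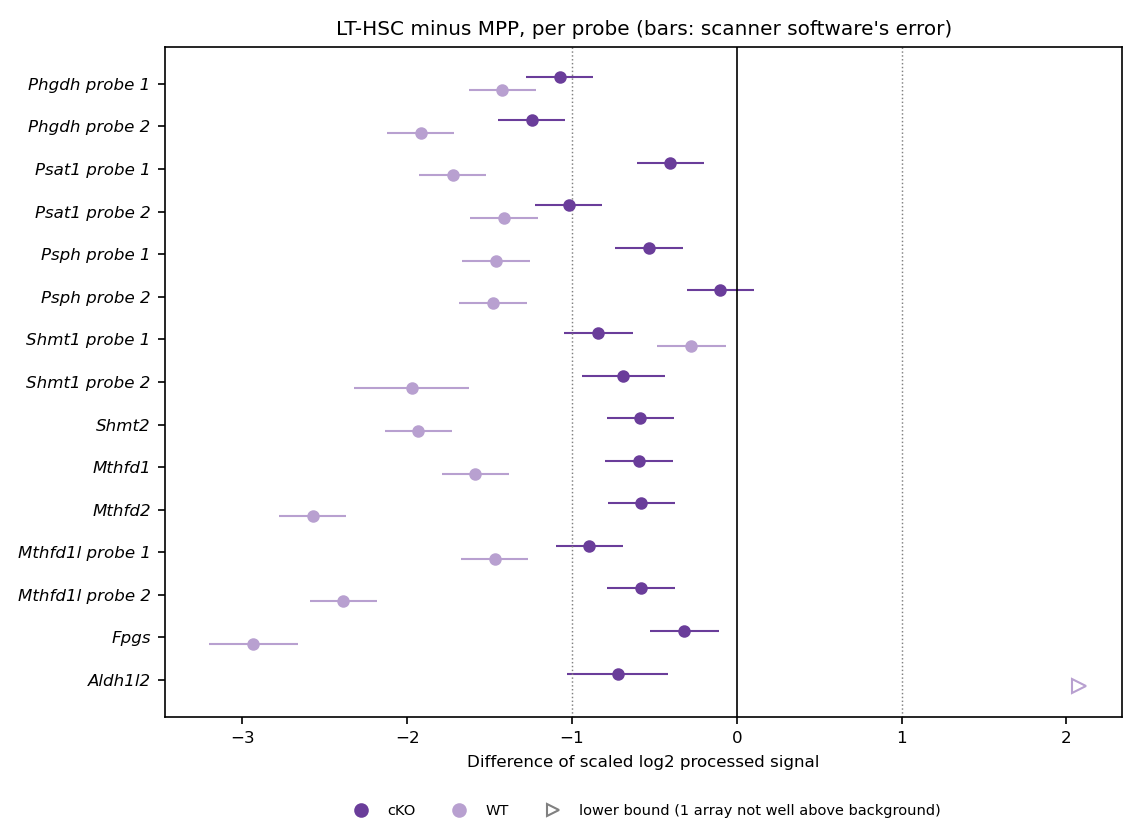
LT-HSC minus MPP for each of the 15 probes (horizontal axis, difference of scaled log2 processed signal) in cKO and in WT, with bars for the scanner software's error, dotted lines at 2-fold and an open triangle for a lower bound. All 15 cKO differences lie below 0, between -1.24 and -0.10, and 13 of the 14 measured WT differences lie below the 2-fold line.

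Between populations, the members can be set against the other genes on the same arrays. In WT the median of all 22403 genes was -0.20, against -1.59 for the 9 members, and in cKO the median of 23386 genes was -0.09, against -0.59 for the 10. Any decrease in LT-HSC was seen in 59.5% of all genes in WT and in 57% in cKO. At 1.5-fold, 6 of the 10 members were lower in cKO LT-HSC than in cKO MPP, where 19.6% of genes were.

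A fit that adds a population term to a genotype term over all 4 arrays (limma, 1 residual degree of freedom) was the only one with any spread to test. For the population term it called 0 of 25858 genes at an adjusted p of 0.05, and 15.8% of genes had an unadjusted p under 0.05. Among the 10 members 2 had such a p: Phgdh at -1.25 (SE 0.29, unadjusted p = 0.0164, adjusted p = 0.272 by limma) and Mthfd1l at -1.18 (SE 0.31, unadjusted p = 0.0248, adjusted p = 0.286 by limma). No member passed the adjusted threshold, and 9 of 10 had a negative estimate. The exception was Aldh1l2, at 0.68.

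**Figure D3:**
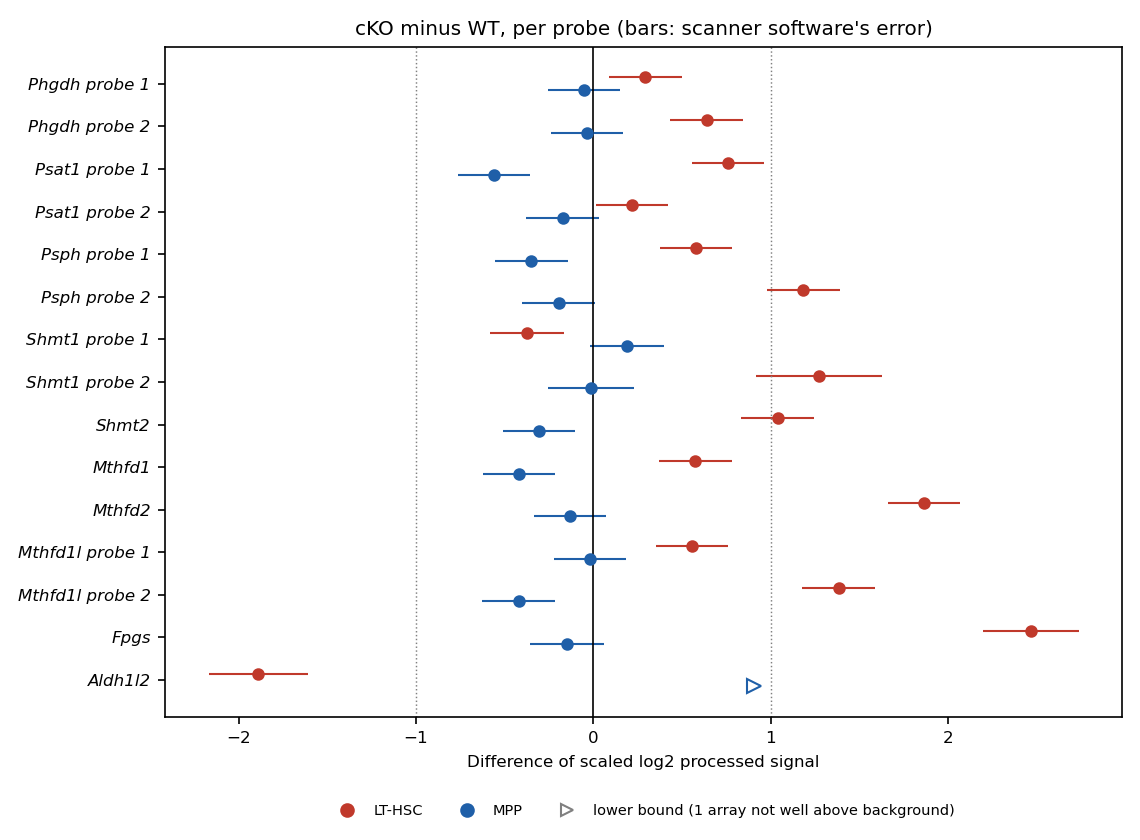
cKO minus WT for each of the 15 probes (horizontal axis, difference of scaled log2 processed signal) in LT-HSC and in MPP, with bars for the scanner software's error, dotted lines at 2-fold and an open triangle for a lower bound. In LT-HSC 6 probes lie above the 2-fold line and 1 below it, while no measured MPP difference reaches it.

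Between genotypes, 8 of the 10 members were higher in cKO LT-HSC than in WT LT-HSC, where 58.6% of all genes were. In MPP 8 of 9 were lower in cKO, where 56.5% of genes were, and the largest of these differences was -0.56 (log2), for Psat1. The same 8 genes made up both counts: 8 of 9 members were higher in cKO LT-HSC and lower in cKO MPP, a combination found in 32.7% of all genes, and the ninth was Shmt1. With the percentile of detected probes, quantile normalization or normexp, Phgdh and Mthfd1l were no longer lower in cKO MPP, and each of these joint counts was 6 of 9, where 25.2% to 29.9% of genes had the combination. The gap between LT-HSC and MPP was smaller in cKO than in WT for 8 of 9 members and for 66.2% of all genes. As scaled here, those 8 members were lower in LT-HSC in both genotypes. For them the smaller gap and the order given next follow from the signs above, so these counts are not separate observations. The order WT MPP, cKO MPP, cKO LT-HSC, WT LT-HSC from high to low was seen in 13 of 14 member probes, where 18.7% of all probes had it, and in 8 of 9 members by their brightest probe, where 19.3% of genes had it. Under the same 3 scalings it was seen in 6 of 9 members and in 13.2% to 15.5% of genes. Neighbours in that order were often close: the MPP arrays differed by no more than 0.20, the usual size of the scanner error, for Phgdh, Mthfd2, Mthfd1l and Fpgs on their bright probes.

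The genotype term of the additive fit gave no member an unadjusted p under 0.05, where 3.59% of all genes had one, and no adjusted p under 0.973 (limma). Its largest estimates among the members were 1.16 for Fpgs and 0.87 for Mthfd2. With normexp these were 0.46 for Fpgs and 0.83 for Mthfd2. In this fit a genotype difference that changes sign between LT-HSC and MPP counts as error.

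By role, the medians of cKO minus WT in LT-HSC were 0.58 for the 3 serine synthesis enzymes, 0.10 for the 2 cytosolic folate enzymes and 0.80 for the 4 mitochondrial ones. For LT-HSC minus MPP in WT they were -1.46, -0.93 and -1.93 in the same order, the last over 3 enzymes without Aldh1l2, which was at least 4.21-fold higher in WT LT-HSC. The cytosolic medians take Shmt1 from probe 1, at -0.37 and -0.28 in these comparisons. Shmt1 probe 2 was at 1.27 and -1.97, so no contrast of cytosolic with mitochondrial enzymes is drawn. The serine synthesis enzymes were close to one another, between 0.29 and 0.76 in cKO minus WT in LT-HSC, while the mitochondrial enzymes lay as far apart as 1.86 for Mthfd2 and -1.89 for Aldh1l2.

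Genes with a pair of probes show how far readings of the same gene differ. In cKO minus WT, 4 of the 5 pairs shared a sign in LT-HSC and 4 of 5 in MPP, and the probes of a pair differed by 0.34 to 1.64 in LT-HSC and by 0.02 to 0.40 in MPP. In LT-HSC minus MPP all 5 pairs shared a sign in each genotype, though the dimmer Psph probe in cKO, at -0.10, was within the scanner error. The widest of these gaps in LT-HSC, 1.64 for Shmt1, exceeds the genotype difference of every member there except Fpgs, Mthfd2 and Aldh1l2.

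**Figure D4:**
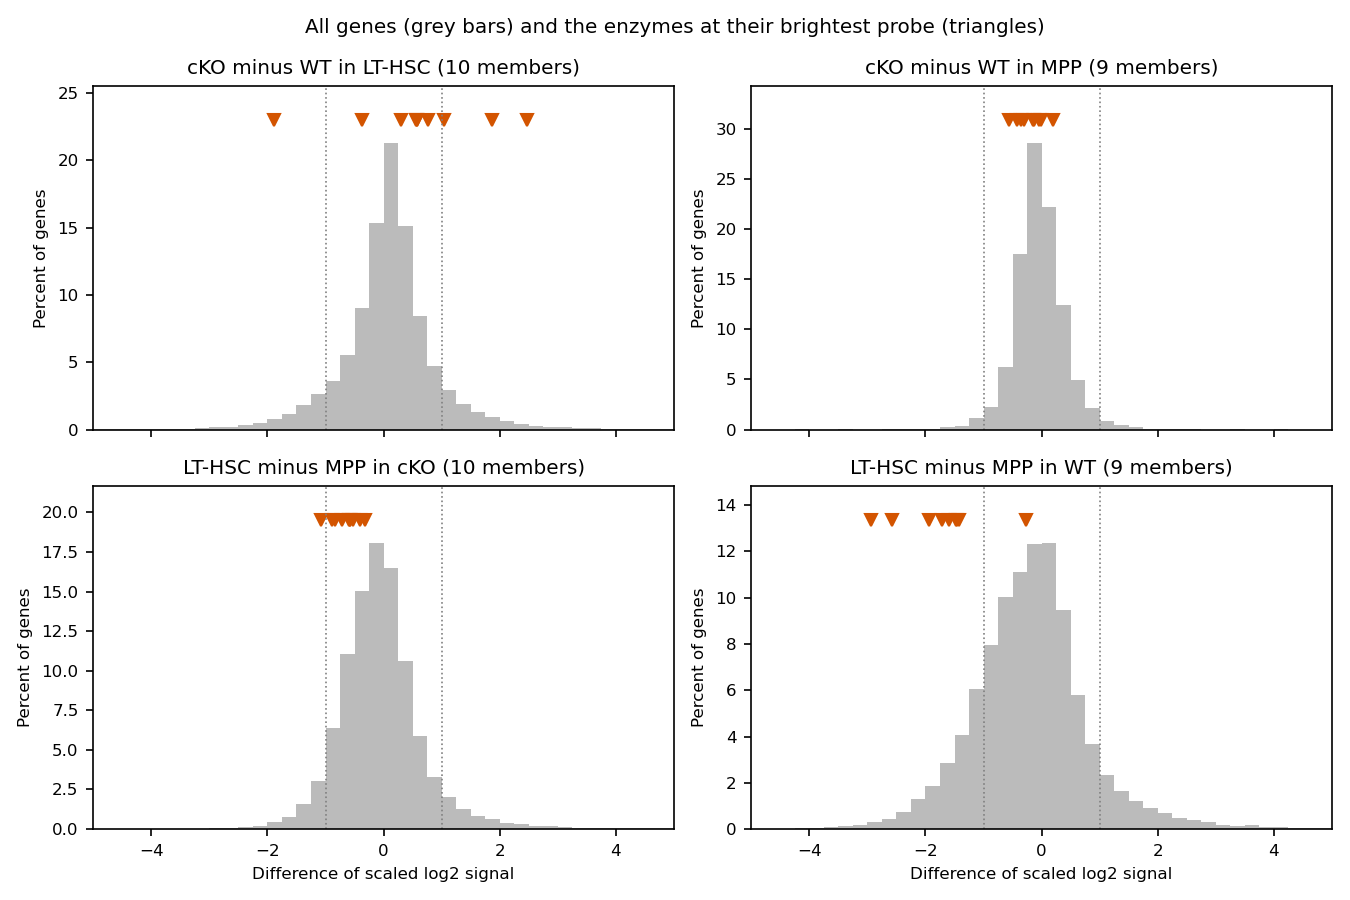
Difference of scaled log2 signal for all genes (histograms) and for the members (marks) in each of the 4 comparisons. In WT 8 of 9 members sit below the 2-fold line in LT-HSC minus MPP, and in cKO minus WT in MPP they lie between -0.56 and 0.19.

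Other folate genes were counted as a list of 17 enzymes and carriers outside the 10. In cKO minus WT in LT-HSC, 6 of the 13 measured were higher by 2-fold or more, where 8.97% of all genes were, and 1 was lower, where 7.92% were, with a median of 0.64. Tyms, thymidylate synthase, read 126.7 in cKO LT-HSC and 23.3 in WT LT-HSC, against 75.5 in cKO MPP and 92.3 in WT MPP, a difference of 2.53. Slc25a32, the mitochondrial folate carrier, was higher by 1.75, and Slc19a1, the reduced folate carrier, by 1.34 on 1 probe and by 0.02 on another. The 1 that was lower was Mthfs, which recycles a stored folate, at -1.12. In MPP 0 of the 15 measured differed by 2-fold between genotypes, where 1.76% of all genes were higher and 1.89% were lower.

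For LT-HSC minus MPP in cKO, Slc19a1 was at -1.23, with a second probe at -0.97. The list's median for LT-HSC minus MPP was 0.28 in cKO and -0.92 in WT, where 6 of 14 were lower by 2-fold (18.1% of all genes) and 2 were higher (9.15% of all genes). Among those lower in WT were Slc19a1 at -2.55, with a second probe at -0.90, Slc25a32 at -2.46 and Tyms at -2.25. The 2 that were higher were Mthfs at 1.46 and Aldh1l1, the cytosolic relative of Aldh1l2, at 1.30. Mthfs and Aldh1l1 fall outside the naming rule and were picked out after their values were seen.

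The second list held genes of glycine cleavage and serine use. Of 10 such genes measured in LT-HSC, 0 were higher in cKO by 2-fold, where 8.97% of all genes were, and 2 were lower, where 7.92% were. These were the amino acid transporter Slc1a5 at -1.18, with a second probe at -0.43, and Sptlc2, of sphingolipid synthesis, at -1.35, with a second probe at 3.0. In cKO LT-HSC minus MPP 2 of 9 were lower by 2-fold, where 6.44% of all genes were. They were Dld, a shared dehydrogenase subunit of the glycine cleavage system, at -1.38 with a second probe at -1.31, and Slc1a5 at -1.01 with a second probe at -0.26. In WT LT-HSC minus MPP, Gcsh of the glycine cleavage system was at -1.47 and the mitochondrial serine transporter Sfxn1 at -1.07, the 2 of 10 that were lower by 2-fold, where 18.1% of all genes were. Second probes were at -1.64 for Gcsh and at -2.20 for Sfxn1. Of 8 methionine cycle genes measured, Ahcy alone passed 2-fold, at -1.51 in cKO and -1.87 in WT for LT-HSC minus MPP on its bright probe. Of all genes, 6.44% in cKO and 18.1% in WT were lower by that much. The other Ahcy probes gave -1.19 and -0.29 in cKO and -1.55 and 0.51 in WT. Between genotypes 0 of the 8 passed. Of all genes, 8.97% were higher and 7.92% lower in LT-HSC, and 1.76% were higher and 1.89% lower in MPP.

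Among known regulators of the serine genes, Trib3, a target of the amino acid response factor Atf4, was higher in cKO LT-HSC by 1.17. Trib3 was the 1 of 8 regulators measured to pass 2-fold there, where 8.97% of all genes were higher and 7.92% were lower. Atf4 itself, which falls outside the naming rule and was picked out after its values were seen, was at 0.06 in LT-HSC and at -0.19 in MPP, with a second probe at -0.46 in LT-HSC and -0.18 in MPP. For LT-HSC minus MPP, Myc was at -1.65 in cKO and -1.54 in WT, and Ddit3 was at 1.07 in cKO and 1.2 in WT, the only regulators past 2-fold in these comparisons. In cKO 1 of 8 regulators was thus lower (6.44% of all genes) and 1 of 8 higher (6.67% of all genes). In WT 1 of 7 was lower (18.1% of all genes) and 1 of 7 higher (9.15% of all genes). In the window of 250 bases before to 50 after the gene start, 0 of 10 RefSeq promoters of 9 members (assembly GRCm38.p6) held the E-box letters CACGTG, which 7.15% of all 32851 promoters hold on either strand. None held TGATGNAAN, the letters searched for the amino acid response element, which 3.95% of promoters hold.

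**Figure D5:**
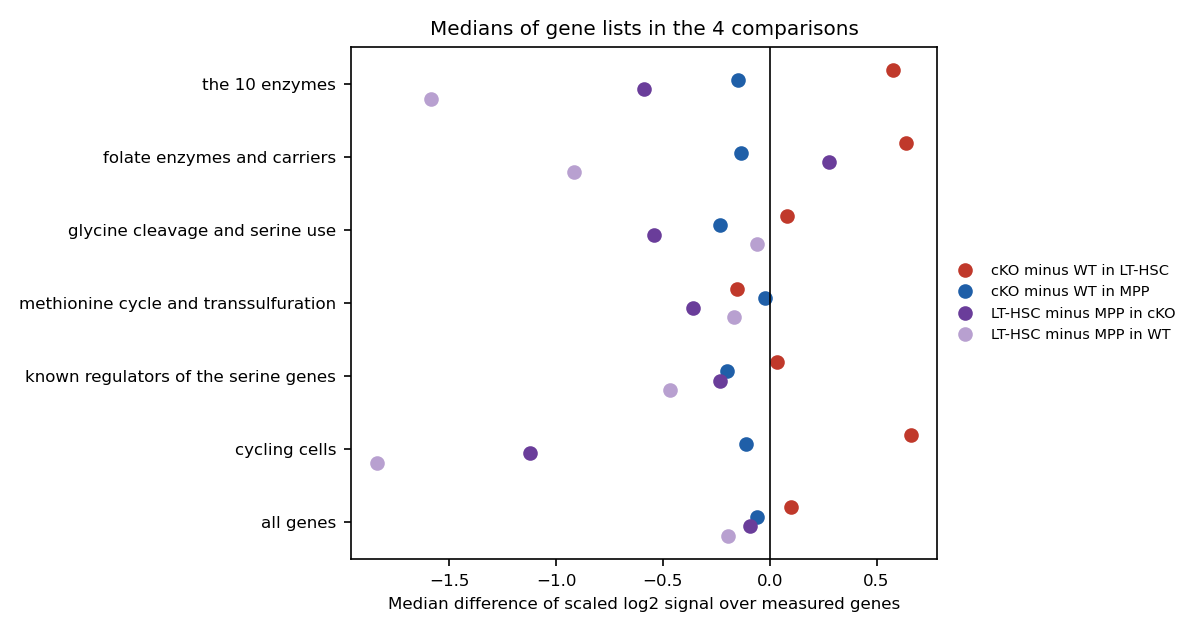
Median difference of scaled log2 signal of the members and of each gene list in the 4 comparisons. The cycling list has the signs of the members in all 4, with -1.12 in cKO and -1.84 in WT for LT-HSC minus MPP. The same signs are seen in the glycine cleavage and serine use list, in the regulators and in all genes. For all genes, LT-HSC minus MPP was -0.09 in cKO and -0.20 in WT.

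Genes of dividing cells were read on the same arrays. The 10 cycling markers, such as Mki67 and Top2a, had summed signals of 50.3 in cKO LT-HSC and 31.7 in WT LT-HSC, against 87.9 in cKO MPP and 94.7 in WT MPP, in units of the array's 75th percentile. On their bright probes all 10 were lower in LT-HSC than in MPP, 6 by 2-fold in cKO (6.44% of all genes) and 9 in WT (18.1% of all genes). In cKO minus WT their median was 0.66 in LT-HSC, where 7 were higher and 3 lower, and -0.11 in MPP. The 3 lower ones were Top2a at -0.16, Plk1 at -0.29 and Cdk1 at -0.31. Further probes of Mki67, Ccnb1, Cdk1 and Birc5 lay between -0.39 and 0.41 in LT-HSC. The part of cycling cells in the members' differences was not tested. B lineage markers ran the other way, with a median of -1.44 in cKO minus WT in LT-HSC, where 8 of 8 were lower, and stromal markers had a median of -3.44. In MPP 8 of 8 macrophage markers measured were higher in cKO by 2-fold or more, where 1.76% of all genes were. Their sums were 84.7 in cKO MPP and 30.2 in WT MPP, while no member measured on both arrays differed by 2-fold.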

How the data were processed

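The deposited scanner tables hold the authors' spot intensities from 1-colour (Cy3) Agilent arrays of design 028005, made with Agilent's extraction software (version 10.7.3.1 in the file headers, 9.5.3 in the submitters' processing notes). The processed signal is background-subtracted per the file headers. Per the file headers, the deposited flags give each spot a score of 0 or 1 for signal well above background, for saturation and for being an outlier. The authors' deposited series table holds ratios of each probe to its own level over the arrays, with column medians of 97.5 (cKO LT-HSC), 102.5 (cKO MPP), 91.9 (WT LT-HSC) and 107.3 (WT MPP). Array differences taken from that table and from the scanner files correlated across probes at r = 1, so the direction is the same, and the rule behind its scale and centring is unknown.

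Each array held 59305 spots of 55681 non-control probes, of which 137 to 151 were left out as outliers and 62.5% to 70.5% were well above background. No spot was saturated. The 4 arrays share 1 slide and 1 scan. Log2 processed signals had the array's 75th percentile over non-control probes subtracted (203.4 in cKO LT-HSC, 218.0 in WT LT-HSC, 177.9 in cKO MPP and 181.2 in WT MPP), and spots of a probe were averaged. Of a gene's probes with signal well above background on 1 array or more, the one with the highest mean stood for the gene. Differences were counted at 2-fold or more. The additive fit used limma 3.58.1 (R 4.3.3) with Benjamini-Hochberg adjustment over genes with such signal on 2 arrays or more, and its script was tested on simulated data. The other steps used Python 3.11.15 with pandas 2.3.3. The number of arrays limits the precision. The members, the gene lists and the tests were chosen with earlier results of these data known. All 10 members are named. From 4 lists of related genes, those at 2-fold or more in a comparison are named, the largest first and at most 4 per list and comparison. Atf4, Mthfs and Aldh1l1 are named outside this rule, and 1 gene that the rule names is not reported here.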

Additional observations from a re-analysis of the deposited data

Results flagged for a closer look

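For 5 of the members, cKO minus WT had opposite signs in LT-HSC and in MPP (each beyond the scanner error, or a bound), and the difference between the populations was not tested. Psat1 was at 0.76 in LT-HSC and at -0.56 in MPP, where its other probe was at -0.17, within the scanner error of 0.204. Psph was at 0.58 in LT-HSC and at -0.35 in MPP, where its other probe was at -0.196, also within that error. Shmt2 was at 1.04 in LT-HSC and at -0.31 in MPP. Its MPP value was within the error of 0.204 with quantile normalization (-0.17) and with normexp (-0.198). Mthfd1 was at 0.58 in LT-HSC and at -0.42 in MPP. Aldh1l2 ran the other way, at -1.89 in LT-HSC and at 0.91 or more in MPP, where the WT spot was not well above background. Among the 9 members well above background on all 4 arrays, 4 had opposite signs beyond the error, where 18.4% of all genes had them, and 9 had opposite signs of any size, where 50% of genes had them. With the percentile of detected probes, quantile normalization or normexp, Phgdh and Mthfd1l no longer had opposite signs.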

How the results depend on the processing

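With 1 array per group, no array could be left out and no replicate error exists, and the dim members (Fpgs in WT LT-HSC, Shmt1 probe 2 and Aldh1l2) are limited by signal over background. No paired analysis was possible because each group had 1 array. Over the scalings, the filter, the probe average and the authors' table, the members' median stayed between 0.53 and 0.73 for cKO minus WT in LT-HSC, between -0.22 and -0.09 in MPP, between -0.65 and -0.40 for LT-HSC minus MPP in cKO and between -1.67 and -1.25 in WT, the last with normexp and quantile normalization. No called difference of a member changed sign. Below the calls, Shmt1 in LT-HSC was at 0.45 with the mean of its probes, and in MPP Phgdh and Mthfd1l went to 0.01 and 0.04 when the percentile used just the probes detected on all arrays, to 0.08 and 0.09 with quantile normalization and to 0.09 and 0.11 with normexp. The single member below 2-fold in LT-HSC minus MPP in cKO was lost (0) with each of these scalings, and the single one in cKO minus WT in LT-HSC (0) with normexp; at 1.5-fold, 6 members were lower in LT-HSC than in MPP in cKO, and with no filter 1 member was higher in LT-HSC than in MPP in WT. For all genes, those higher and lower by 2-fold were 2165 and 1911 for cKO minus WT in LT-HSC, 395 and 423 in MPP, 1561 and 1505 for LT-HSC minus MPP in cKO and 2050 and 4051 in WT. With normexp they were 818 and 1019, 79 and 41, 810 and 418, and 1644 lower in WT. With no filter on dim probes they were 4417 and 3083, 1692 and 2043, 3576 and 2795, and 3665 and 6363. At 1.5-fold they were 4513 and 3582, 1486 and 1684, 3160 and 4580, and 3661 and 7302. The share of calls that were higher went from 48.3% to 58.3% (percentile of detected probes) and 65.8% (normexp) for cKO minus WT in MPP, from 50.9% to 62.6% and 66.0% for LT-HSC minus MPP in cKO, and from 33.6% to 44.1% and 47.5% in WT, where the median of all genes was -0.20, against -0.05 and -0.02. The additive fit called 0 genes for population, 102 with that percentile, 57 with normexp and 58 for genes well above background on all 4 arrays; 0 with quantile normalization or the authors' table. The cause was not tested.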
